A study of Mus musculus with 10 samples.

Results

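Paired myeloid receptors were examined in the infrarenal aorta of mice with an abdominal aortic aneurysm (AAA). The group held 10 genes of the 35527 gene names on the array: the signal regulatory protein (SIRP) genes Sirpa, Sirpb1a and Sirpb1b, the SIRPα ligand Cd47, and the related receptors Pirb, Lilrb4, Cd300a, Cd300lf, Cd300ld and Cd300lb. They were picked by name, with the large difference of Sirpb1b between the groups already known, so the differences of all 10 between the groups are a description and were not used as a test. Pirb stands in the files under its older name Lilrb3. The 10 genes were read by 15 probes, all of which had enough signal to be analysed.

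The aortas came from male C57BL/6J mice aged 10 weeks. In the PPE group, porcine pancreatic elastase (PPE, 1.5 U/mL), an enzyme that digests the elastic fibres of the wall, was infused into the isolated aortic segment for 5 min at 100 mmHg, and the sham group received saline in the same way. Tissue was taken on day 7, and each of the 5 sham and 5 PPE arrays carried unpooled RNA of 1 infrarenal aorta. RNA of the aorta was labelled red (Cy5) and a universal mouse reference RNA, the same material on every array, green (Cy3), with no dye swap. Values are log2 ratios of aorta over reference unless another scale is named, and a difference between groups is PPE minus sham. Whole aortic tissue was measured, in which more cells of a type and more RNA per cell cannot be told apart.

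Paired receptors are families in which inhibitory and activating members have similar extracellular parts and opposite signals. The inhibitory members carry tyrosine motifs (ITIMs) in long cytoplasmic tails that recruit the phosphatases SHP-1 and SHP-2, whereas the activating members have short tails and signal through adaptors such as DAP12 or the Fc receptor γ chain. SIRPα on macrophages binds CD47, a protein on nearly all cells, and the contact restrains phagocytosis. By these known roles, Sirpa, Pirb, Lilrb4, Cd300a and Cd300lf are inhibitory and Sirpb1a, Sirpb1b, Cd300ld and Cd300lb are activating.

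The Sirpb1 genes are near copies that lie close together, and the sequence before their annotated starts is shown first to describe that likeness. This sequence lies before the annotated start, so it does not show what a Sirpb1 probe can read. In RefSeq (GRCm38.p6, chromosome 3, minus strand), the stretch before the annotated start of Sirpb1b recurs upstream of Sirpb1a and of Sirpb1c, another copy. The lines give the 157 bases that lie upstream of the annotated start in all 3 genes, with capitals at the 9 positions where the copies differ. They lie at chr3:15426521-15426677 for Sirpb1a, chr3:15575066-15575222 for Sirpb1b and chr3:15848529-15848685 for Sirpb1c.
Sirpb1a: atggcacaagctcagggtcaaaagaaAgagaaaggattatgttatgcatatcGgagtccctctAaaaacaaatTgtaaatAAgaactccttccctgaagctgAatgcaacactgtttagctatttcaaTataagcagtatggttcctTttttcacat
Sirpb1b: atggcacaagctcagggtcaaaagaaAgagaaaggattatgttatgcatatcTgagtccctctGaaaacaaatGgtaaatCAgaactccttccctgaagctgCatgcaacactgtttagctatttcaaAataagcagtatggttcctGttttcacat
Sirpb1c: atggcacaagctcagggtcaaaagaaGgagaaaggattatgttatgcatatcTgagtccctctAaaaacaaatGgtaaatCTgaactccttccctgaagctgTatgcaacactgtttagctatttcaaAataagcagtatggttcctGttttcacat
Over the whole overlap of the 300-base windows, aligned without gaps, 95.7% of 207 bases were identical between Sirpb1a and Sirpb1b. The values were 95.6% of 248 bases for Sirpb1a and Sirpb1c and 98.1% of 259 bases for Sirpb1b and Sirpb1c.

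The probes were then checked for what else they could read. Both Sirpb1a probes list transcripts of Sirpb1a, Sirpb1b and Sirpb1c in the array's annotation, and so does the probe of Sirpb1c. The Sirpb1b probe lists Sirpb1b alone among RefSeq genes. Both Lilrb4 probes also list Lilr4b, a near copy that the files call Gp49a, and the Gp49a probe lists Lilrb4 in turn. For the other members no second gene of the RefSeq table was listed, and 1 accession each of Sirpa and Cd300ld was not in that table. A match to unlisted transcripts was not examined, since no transcript sequences were used here.

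Runs of at least 16 bases shared with other probes of the array were counted as a second measure. Of all 55681 probes, 82.1% shared no such run with any other. The Sirpb1b probe, 1 Sirpb1a probe and the probes of Pirb, Lilrb4, Cd300ld, Cd300lb and Cd47 shared none. Sharing none does not show that a probe reads a single gene, since that Sirpb1a probe and the Lilrb4 probes list transcripts of other genes. The Cd300a probe shared runs with 3 other probes, a number reached by 3.92% of probes, and 1 Cd300lf probe shared runs with 9, a number reached by 1.15%. Windows of 30 bases from 4 probes are shown to contrast the Sirpb1 probes with these 2, with capitals at bases that lie in a shared run.
Sirpb1b: ctctgcatatgtattgctatcccagaactt
Sirpb1a: ccactgtcatttacATGCATAAGAAGCAAA
Cd300a: gtgtgtATGTGTATATGTATGTATGTATGT
Cd300lf: ttttaaggaGGAAGAGAGAGAGAGAGAGAG
On the array's build, mm9, the 60-base probes lie at chr3:15495798-15495857 (Sirpb1b), chr3:15378994-15379053 (Sirpb1a), chr11:114765539-114765598 (Cd300a) and chr11:114977796-114977855 (Cd300lf). The Cd300a window and the end of the Cd300lf window are simple repeats, and the Sirpb1a capitals are a single 16-base run also found in the Tnpo1 probe. The other 2 Cd300lf probes overlap each other by 53 bases and are not independent readings. Whether a probe falls in an exon's coding part or its UTR was not looked up, since no mm9 gene annotation was used here.

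Sirpb1b, an activating receptor that couples to DAP12, had the third largest increase of 22520 gene names tested, as processed here. Its log2 ratio was 8.38, 7.15, 7.02, 7.04 and 7.64 on the 5 PPE arrays and 1.39, 0.98, 1.29 and 0.83 on sham 1, 3, 4 and 5. The spot of sham 2 was marked by the scanner software as not uniform and was left out. All PPE values were far above all sham values used. The means were 7.45 ± 0.58 (SD, n = 5) and 1.12 ± 0.26 (SD, n = 4), a difference of 6.32 (SE 0.27). With the sham 2 spot kept, its ratio was 3.26, the highest of the sham arrays, and the difference was 5.90. The difference was 6.38 within slide 1 and 6.05 within slide 2. By the scanner software's own ratio it was 3.92. Red signal after normalization, which draws on both channels, differed by 6.57, and red was above background on all 10 arrays. The reference signal was above background on none of the 4 sham arrays used and on 5 of 5 PPE arrays, so the size of the ratio's difference is uncertain and no fold is given.

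Sirpb1a, read by probes that also list the other Sirpb1 copies, was 6.93, 6.42, 5.56, 5.57 and 6.48 on the PPE arrays. On the sham arrays it was 1.04, 0.96, 0.86, 1.66 and 0.79. The groups were widely separate, with PPE 1 highest and sham 4 standing above the other sham arrays. The difference was 5.13 (SE 0.27), and 5.35 (SE 0.31) at the second probe. It fell to 3.15 by the scanner software's ratio. Reference signal was above background on 1 of 5 sham arrays at the first probe and on 0 of 5 at the second, and no fold is given here either. Sirpb1c, which is no member, was 4.22 (SE 0.25) higher, so all 3 Sirpb1 names were higher, and how much of each signal came from which copy was not tested.

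The CD300 activating receptors had smaller differences. Cd300ld, which signals through the Fc receptor γ chain, ranged from 0.14 to 0.76 on sham arrays and from 2.71 to 3.25 on PPE arrays, a difference of 2.49 (SE 0.14). Cd300lb, which couples to DAP12, was 2.46, 1.53, 1.15, 2.12 and 0.46 on the PPE arrays and between -1.35 and -0.50 on the sham arrays. Of the members' brightest probes, that of Cd300lb varied most among the PPE arrays (SD 0.79), with PPE 5 lowest. Its difference of 2.46 (SE 0.33) rose to 4.04 by the scanner software's ratio, and its red signal was above background on 3 of 5 sham arrays.

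**Figure D1:**
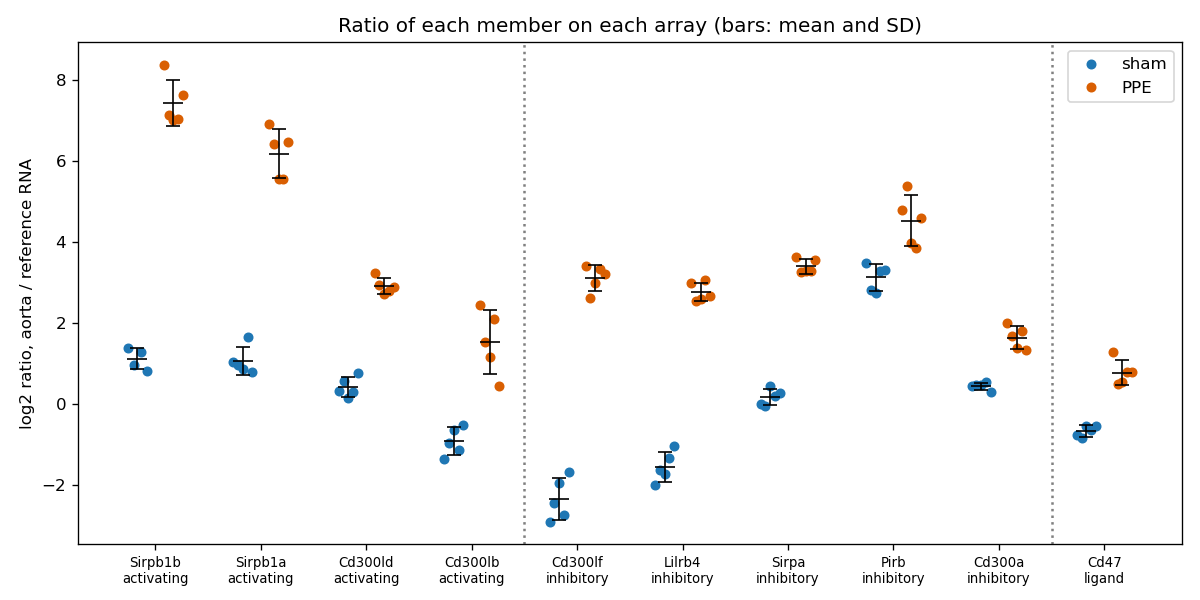
Log2 ratio of aorta over reference (vertical axis) for the 10 members, ordered by role, on each sham (blue) and PPE (orange) array; bars give the mean and SD. The groups do not overlap for any member, the widest gap is that of Sirpb1b, and Pirb starts from a sham mean of 3.13 where most others start near or below 1.

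Among the inhibitory receptors, Cd300lf, which binds phosphatidylserine and ceramide, had the largest difference. Its brightest probe was 3.42, 2.64, 2.98, 3.34 and 3.22 on the PPE arrays and ran from -2.90 to -1.69 on the sham arrays. The difference was 5.46 (SE 0.24), or 44.0-fold as processed here, and 4.86 (SE 0.24) at the probe that overlaps it. Red signal at the brightest probe was only 64.7 to 156 on sham arrays. Its difference was 6.03 with no offset and 6.40 by the scanner software's ratio. The probe that ends in the repeat gave 3.18 (SE 0.37), so the size depended on the probe and the processing. All 3 readings were higher.

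Lilrb4, an ITIM receptor of macrophages and mast cells, was 2.98, 2.56, 2.59, 3.06 and 2.68 on the PPE arrays. On the sham arrays it was -2.01, -1.62, -1.73, -1.33 and -1.04. The ratio was thus below 0 on every sham array and above 0 on every PPE array. The difference was 4.32 (SE 0.18), or 19.9-fold. At the second probe it was 3.41 (SE 0.34), with PPE 5 lowest of its group at 0.24, and Gp49a, which is cross-listed with Lilrb4, was 3.58 (SE 0.34) higher.

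Sirpa, the inhibitory receptor for CD47, had the tightest PPE values of the 10. It was 3.65, 3.26, 3.28, 3.29 and 3.56 on the PPE arrays and 0.00, -0.04, 0.44, 0.20 and 0.28 on the sham arrays. No PPE array came near the sham range. The difference was 3.23 (SE 0.13), or 9.40-fold, with 3.46 within slide 1 and 3.09 within slide 2.

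Cd300a, an ITIM receptor that binds phosphatidylserine, had the smallest difference of the 10, at 1.20 (SE 0.14), although Pirb was lower with no offset (0.92 against 1.53) and by the scanner software's ratio (0.63 against 1.32). It ranged from 0.30 to 0.54 on sham arrays, and on PPE arrays its lowest value was 1.34 and its median 1.68. Its red signal was above background on 4 of 5 sham arrays, and its probe is the repeat shown above.

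Pirb, the mouse receptor for MHC class I with several ITIMs, was 4.80, 5.40, 3.99, 3.87 and 4.60 on the PPE arrays. On the sham arrays it was 3.48, 2.83, 2.74, 3.30 and 3.32. The groups came close, with PPE 4 only just above sham 1. The difference was 1.40 (SE 0.28). The reference signal was also higher on the PPE arrays and normalized red signal differed by 4.34, so no fold is given. The ratio's difference was 0.63 by the scanner software's ratio (adjusted p = 0.15, limma). With no offset in the background correction it was 0.92 (adjusted p = 0.0409).

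Cd47, the ligand of SIRPα, differed less than its receptor. It was 1.29, 0.49, 0.54, 0.79 and 0.79 on the PPE arrays and -0.77, -0.84, -0.53, -0.64 and -0.53 on the sham arrays. Every PPE array lay above 0 and every sham array below it. The difference was 1.44 (SE 0.15), or 2.72-fold, and 1.65 (SE 0.15) at the second probe, and PPE 1 was the highest array at both probes.

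**Figure D2:**
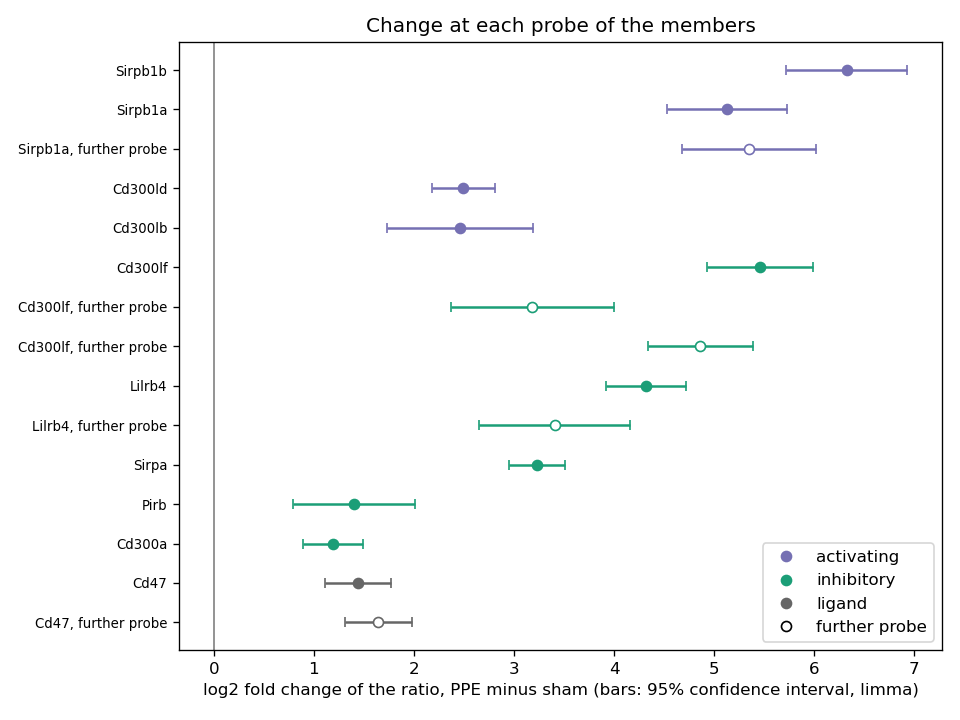
Log2 fold change of the ratio, PPE minus sham (horizontal axis), with its 95% confidence interval from limma, at each of the 15 probes; filled points are the brightest probe of a gene and open points its further probes, coloured by role. All 15 lie above 0, from 1.20 for Cd300a to 6.32 for Sirpb1b, and the Cd300lf probes spread from 3.18 to 5.46.

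At an adjusted p under 0.01, 10 of 10 members were called higher, against 13.9% of all 22520 names called higher and 9.96% called lower. All 10 also had every PPE array above every sham array, which held for 15.0% of all names. Nothing is read from these counts, because the members were picked with this contrast known. The activating and inhibitory members overlapped in size. The mean log2 fold change was 4.10 for the 4 activating members (2.46 to 6.32) and 3.12 for the 5 inhibitory ones (1.20 to 5.46). With Sirpb1b left out, the activating mean was 3.36, and with Cd300a left out the inhibitory mean was 3.60. Both Sirpb1a probes also list Sirpb1b transcripts, so these members may not be separate readings. Leaving out Sirpb1b may thus not remove its signal.

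The activating mean minus the inhibitory mean was 0.98 ± 0.26 (SD, n = 5) on the PPE arrays, against an SD of 0.15 on the sham arrays, each member set to its own sham mean. It was 1.44 on PPE 1 and 0.95, 0.81, 0.86 and 0.84 on PPE 2 to 5. Without Sirpb1b it was 0.24, without Cd300a 0.50, without Pirb 0.55 and by the scanner software's ratio 0.21. The size of the gap between the classes thus changed with single members and with the processing. Cd300ld (2.49) and Cd300lb (2.46) were below the inhibitory mean of 3.12, so the activating mean exceeded it only through the Sirpb1 genes. Cd47 stood at 1.95, 1.15, 1.20, 1.45 and 1.45 above its sham mean on PPE 1 to 5, below both class means on every PPE array.

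The reference channel was then read alone, since it holds the same RNA on every array and did not enter the choice of members other than as the denominator of the ratio. At the Pirb probe, green signal was 2569, 593, 3082, 4958 and 1636 on the PPE arrays. On the sham arrays it was 141, 240, 281, 234 and 313. Every PPE array thus showed more reference signal than every sham array at a probe where both were given the same reference. On the log2 scale, after background correction and with each array set to its own median green signal, green was 3.26 (SE 0.36) higher on PPE arrays (adjusted p = 0.000153, limma over all names). This was the third largest green increase of the 22520 names, whose median was 0.05. Red signal of Pirb was 439 to 1509 on sham arrays and 5247 to 83430 on PPE arrays. Normalized red signal differed by 4.34 where the ratio differed by 1.40. Red and green were scaled in different ways, so their differences do not subtract to that of the ratio.

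The Sirpb1 probes differed less clearly and at lower green signal. At the brighter Sirpb1a probe, green was 268, 72.4, 394, 589 and 185 on the PPE arrays and 38.6, 98.1, 87.6, 116 and 90.4 on the sham arrays. The raw signals overlapped through PPE 2. After scaling to the array median they did not, and the difference was 1.77 (SE 0.31, adjusted p = 0.00662). That call was lost without any 1 of the sham arrays, without PPE 1 (adjusted p = 0.0509) or without PPE 3, and the difference ran from 1.50 to 2.07 with each of the 10 arrays left out in turn. At the second Sirpb1a probe, the scaled difference was 1.29 (SE 0.24) and missed the threshold (adjusted p = 0.0124). At the Sirpb1b probe, green was 79.0, 51.8, 151, 204 and 110 on PPE arrays and 30 to 112 on sham arrays, a scaled difference of 0.82 (SE 0.18) that missed the threshold (adjusted p = 0.0395). With no offset in the background correction it was 1.78 and was called (adjusted p = 0.00316). The ratio of Sirpb1a differed by 5.13 and its normalized red signal by 6.33, and for Sirpb1b the values were 6.32 and 6.57.

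In all, 2 of 10 members were called higher in the reference channel, against 0.298% of all names called higher and 0.435% called lower. The count was 3 with no offset and 1, Pirb, after quantile scaling. After scaling, Pirb, Sirpb1a and Sirpb1b had every PPE array above every sham array in green, 3 of 10 members against 1.19% of all names. At the other 7 members apart from Sirpb1b, the scaled green difference lay between -0.10 (Lilrb4) and 0.75 (Cd300ld, adjusted p = 0.197). At the Lilrb4 probe, green was 6280 to 9401 on PPE arrays and 8230 to 12000 on sham arrays, while red was 6748 to 82290 on PPE arrays and 422 to 2391 on sham arrays. Green on sham arrays was far brighter here than at the Pirb probe (141 to 313), so the probes are not alike in starting level. Nothing is read from this contrast. What made the green signal differ at the Pirb and Sirpb1a probes was not tested.

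**Figure D3:**
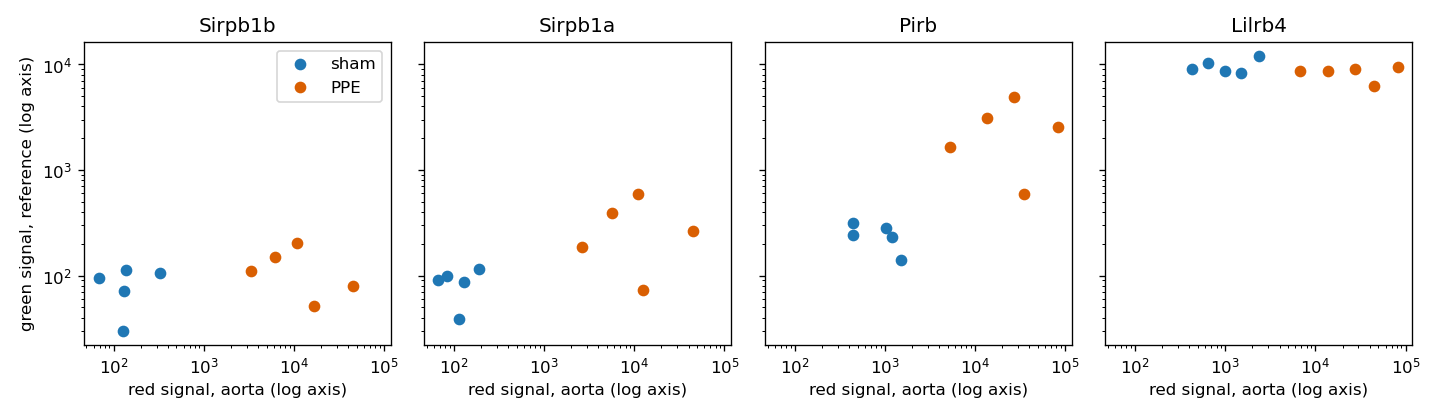
Red signal (aorta, horizontal) against green signal (reference, vertical), both on log axes and before background correction, for each sham (blue) and PPE (orange) array at 4 member probes. At Pirb, green is at most 313 on sham arrays and at least 593 on PPE arrays. At Sirpb1a and Sirpb1b the groups overlap in green, and at Lilrb4 green lies between 6280 and 12000 over the whole range of red.

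The downstream side of the receptors was described with a list of 18 adaptors, kinases and phosphatases. Of the 18 tested, 17 were called higher and 1 lower, against 13.9% and 9.96% of all names, and the median log2 fold change was 2.48, against 0.02 over all names. Tyrobp, which encodes DAP12, the adaptor of Sirpb1b and Cd300lb, was 2.87 (SE 0.21) higher. The Src-family kinase Fgr had the largest difference, at 4.34 (SE 0.25). The phosphatases that ITIMs recruit went in opposite directions. Ptpn6, which encodes SHP-1 and is mainly found in blood cells, ranged from -1.89 to -0.33 on sham arrays and from 1.67 to 2.61 on PPE arrays, 3.42 (SE 0.28) higher. Ptpn11, which encodes the widely expressed SHP-2, ranged from 0.71 to 1.24 on sham arrays and from -0.06 to 0.64 on PPE arrays, and fell by 0.76 (SE 0.15).

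Of 46 other paired and related myeloid receptors, 37 were tested, 26 were called higher and none lower, with a median of 2.21. Of all names, 13.9% were called higher and 9.96% lower. The 26 may not all be separate readings. Sirpb1c and Gp49a are cross-listed with members, and Pira probes share runs of up to 41 bases with other probes of the array. Of the 26, 2 had red signal above background on no sham array, and others had it on only some, such as Sirpb1c on 3 of 5. All of these passed the filter only with the help of the PPE arrays. The same holds for Fgr of the signalling genes (3 of 5 sham arrays). With red above background required on all 10 arrays, 35 genes of the lists of receptors, signalling genes and ligands were called, against 49 here. The largest value was that of Sirpb1c and the smallest that of Siglech, a plasmacytoid dendritic cell receptor, at -0.30 (SE 0.17), which was not called. Of 11 ligands and partners other than Cd47, 9 were tested, 3 were called higher and 2 lower, with a median of 0.15. Thbs1 (thrombospondin-1, which binds CD47) was 3.22 (SE 0.37) higher and Calr (calreticulin, whose signal for phagocytosis CD47 opposes) 0.48 (SE 0.12) higher. Angptl2, which binds Pirb, fell by 0.64 (SE 0.13), and Cd200, the ligand of the CD200 receptors, fell by 0.90 (SE 0.21). These lists were chosen with earlier results of the same arrays known, so their counts are a description.

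**Figure D4:**
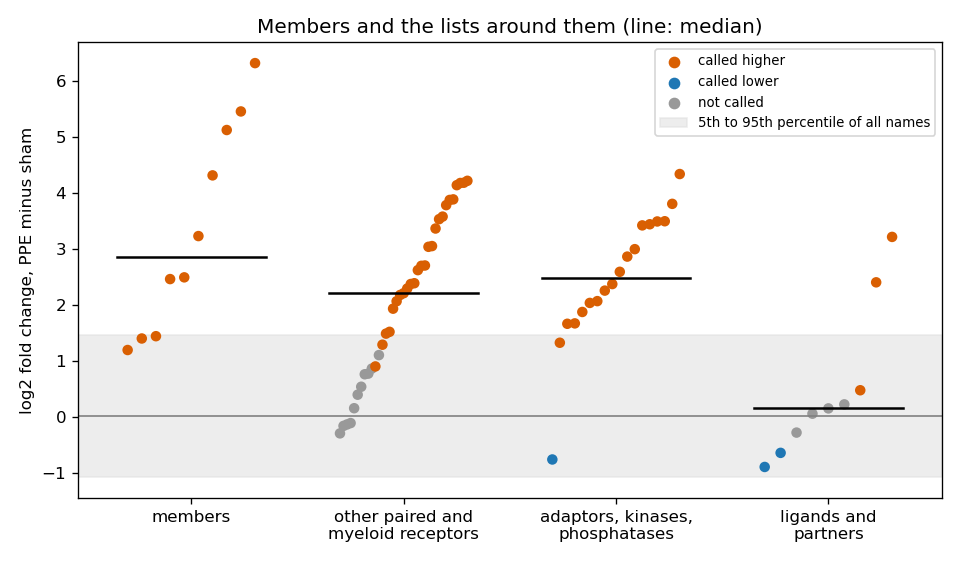
Log2 fold change, PPE minus sham (vertical axis), of each tested gene among the members, other receptors, signalling genes and ligands (Cd47 shown only with the members); lines are medians and the grey band runs from the 5th (-1.08) to the 95th (1.47) percentile of all names. Receptors and signalling genes lie mostly above the band, and ligands mostly within it.

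Markers of macrophages, monocytes, neutrophils and dendritic cells differed between the groups in part. Of the listed markers tested, 6 of 10 macrophage, 5 of 6 monocyte, 9 of 10 neutrophil and 4 of 6 dendritic cell genes were called higher. None of them was called lower. Of all names, 13.9% were called higher and 9.96% lower, and 15.0% had every PPE array above every sham array. The mean log2 ratios of these marker lists did not overlap between the groups. For macrophages they were 1.28 to 1.92 on sham and 2.64 to 3.74 on PPE arrays. For monocytes the ranges were 0.09 to 0.63 and 2.93 to 3.83. For neutrophils they were 0.28 to 0.43 and 2.38 to 3.96, and for dendritic cells 0.39 to 0.87 and 1.87 to 3.27. Among single markers, Ccr2, a monocyte chemokine receptor, was 4.45 (SE 0.26) higher and S100a8, a neutrophil protein, 5.52 (SE 0.38) higher, whereas Cd163, a resident macrophage scavenger receptor, stood at -0.46 (SE 0.17, adjusted p = 0.0518). The neutrophil granule genes Ngp and Mmp8 and the NK cell gene Klrk1, all called higher, were above background on none of the 5 sham arrays. Other called markers were above background on only some sham arrays, such as Cxcr2 (1 of 5), Klrb1c (3 of 5), Flt3 and Cd3d (4 of 5 each). All of these passed the filter only with the help of the PPE arrays. T cell (3 of 6), NK cell (3 of 5) and fibroblast (3 of 6) markers were called higher in part, adipocyte (1 of 6) and erythroid (2 of 4) markers lower in part, and no marker of mast cells (6 tested), B cells (4), endothelium (6) or platelets (4) was called. All 7 smooth muscle markers were above background on every sham array, and 5 of them were called lower. The part of these cell types in the members' differences was not tested.

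The genes whose ratio followed Sirpb1b most closely over the 9 arrays with a value were Actr3 (Pearson r = 0.997), Slc43a2 (0.997), AA467197 (0.996), Lgmn (0.996) and Cd86 (0.996), among 12049 names above background on those arrays. Their log2 fold changes ran from 1.23 for Actr3, an actin-nucleating subunit, to 4.73 for AA467197. Since 4 of the arrays are sham and 5 PPE, any gene with a large group difference comes near 1 on this measure, and no member was among the 5.

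Position was not used to choose the members, and 6 of the 10 lie on the same chromosome as relatives among them. The 4 CD300 genes sit on chromosome 11, Sirpb1a and Sirpb1b on chromosome 3, Sirpa on chromosome 2, Pirb on 7, Lilrb4 on 10 and Cd47 on 16. In the 300-base RefSeq windows from 250 bases before to 50 after the start, available for 8 of 10 members, the letters GAGGAAGT, a consensus of the myeloid factor PU.1, were searched on both strands. They were found in 3 members (Pirb, Cd300ld and Cd300lf) and in 3.20% of all 32851 windows. Of the 3, the stretches that lie wholly before the start are shown, with the motif in capitals (GRCm38.p6, chr7:3720479-3720518 and chr11:114990006-114990045, minus strand).
Pirb: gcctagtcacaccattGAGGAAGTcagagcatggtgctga
Cd300ld: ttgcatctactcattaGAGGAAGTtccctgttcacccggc
The match is a description of the letters only. The windows of Sirpb1a, Sirpb1b, Cd300a, Cd300lb and Cd47 did not hold these letters.

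**Figure D5:**
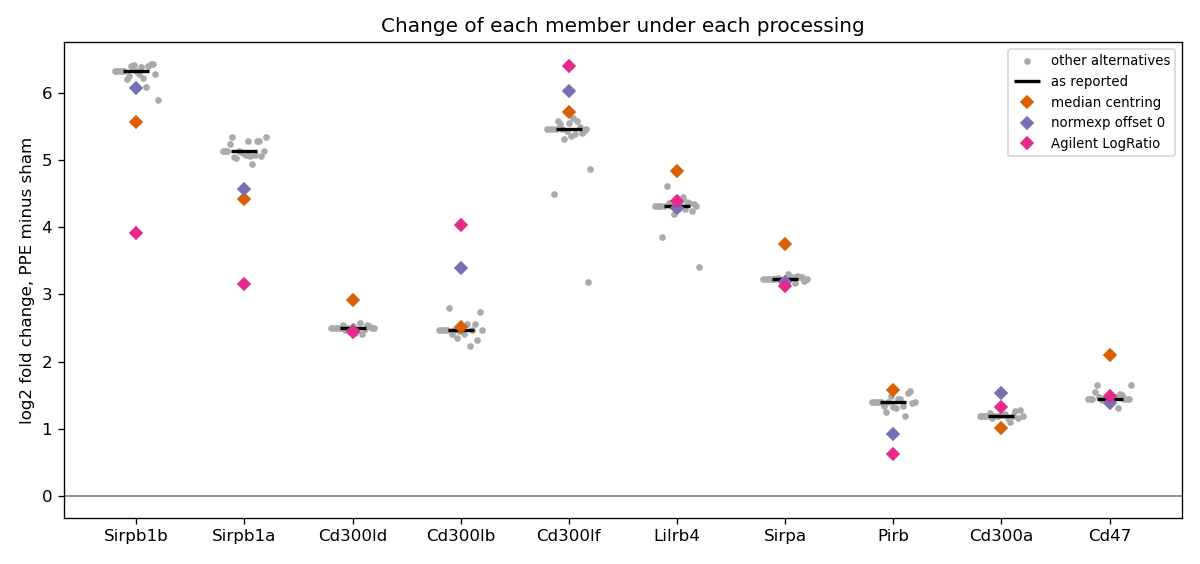
Log2 fold change of each member (vertical axis) as reported (black line), with median centring, with no offset in the background correction, by the scanner software's ratio (coloured diamonds) and under the other alternatives (grey). No value falls below 0, Sirpb1b and Sirpb1a drop to 3.92 and 3.15 by the scanner software's ratio while Cd300lb and Cd300lf rise to 4.04 and 6.40, and Pirb drops to 0.63.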

How the data were processed

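The arrays were SurePrint mouse arrays read by the authors with Agilent Feature Extraction 10.7.3.1 (array build mm9). Spot signals and backgrounds were deposited as linear intensity, and the software's ratio, red over green, was deposited as a log10 value and converted to log2. Further, the authors' series matrix holds log2 values, equal to log2 of processed red over processed green on 100% of spots (within 1e-04). The authors left out arrays of poor hybridization. They also used clustering and principal components to settle the treatment subgroups and drop outliers, and which arrays were removed is not stated. Groups came from the sample titles.

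With limma 3.58.1 in R 4.3.3, normexp removed the background (offset 50, which draws dim probes towards 0), arrays were normalized by loess, control spots and outlier-marked spots were left out and spots of a probe averaged. Probes needed red well above background on 5 or more of the 10 arrays to be tested, and a name was read by its brightest tested probe. The fit over 22520 names was unpaired, with Benjamini-Hochberg adjustment and a threshold of 0.01, after the study's false discovery rate. The reference channel was fitted alone in the same way, a choice made after seeing the data. Normalized red signal was rebuilt from the loess ratio and the mean brightness of both channels, quantile-scaled between arrays, so green enters it. The fit was tested on simulated data. SAM, the study's test, was not rerun.

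The arrays lay on 5 slides, slide 1 (sham 1, PPE 1 and PPE 2) being the only one of scan day 2. Red was above background on 37.6% to 65.8% of spots. Text names all members with every probe, at most 4 genes of each list (the extremes and those a result turns on) and the 5 names most like Sirpb1b. The members, roles and lists were chosen with earlier results of these data known. The number of arrays limits the precision.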

Additional observations from a re-analysis of the deposited data

Results flagged for a closer look

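Of 21 groups of 5 arrays examined, 2 held an array that stood far from the others of its group, and chance alone gives about 5% of groups. Sirpb1a on sham 4 had a log2 ratio of 1.66, with the next sham array at 1.04, a gap of 0.71 of the range of the group. The activating mean minus the inhibitory mean was 1.44 on PPE 1, with the next PPE array at 0.95, a gap of 0.78 of the range. PPE 1 was also the array with the largest share of red spots above background (65.8%), and the part of this in the gap was not tested.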

How the results depend on the processing

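No member changed direction under any alternative. Of the 10 members, 6 kept their call throughout, Pirb lost it under 4 (median centring, offset 0, the scanner software's ratio and the series matrix) and Cd47, Cd300a and Cd300lb under 1 each (median centring). With red above background required on all 10 arrays, Cd300a and Cd300lb were not tested and the other 8 members were called. Median centring in place of loess, which moved the median of all names from 0.02 to 0.41, left 416 names called (408 higher, 8 lower, so 98.1% higher against 58.2%), 6 members, 24 genes of the wider lists and an activating minus inhibitory difference of 0.48. That difference was 0.21 by the scanner software's ratio and by the series matrix, 1.29 with the mean of all tested probes, 0.24 without Sirpb1b, 0.50 without Cd300a and 0.55 without Pirb. In the reference channel, 121 names and 3 members were called higher with offset 0, 43 names after quantile scaling (with 1 member, Pirb) and 106 with slide as a block. Leaving out 1 array at a time gave 4300 to 5863 names called, 2514 to 3615 higher and 1752 to 2348 lower, 10 members, 44 to 50 wider-list genes against 49, a class difference of 0.87 to 1.02, and in the reference channel 25 (without PPE 1) to 152 (without PPE 2) names called higher, 70 to 108 lower and 1 to 2 members. The cause of these shifts was not tested. The replicate block called 3024 names higher and 2281 lower and 10 members. Deviations of same-numbered arrays correlated between -0.30 and 0.52 and only number 5 matched its own number best, so the numbers were not taken as pairs. Alternatives added after seeing the data were scan day as a block, outlier-marked spots kept, the member subsets and all those of the reference channel.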
